A study of Mus musculus with 6 samples.

Results

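The 45 genes described here encode the cytokines, receptors, adaptors, kinases and transcription factors of NF-kB, IL-1, TNF and IL-6 signalling. They were taken by name from a list chosen with earlier results of these data known. Acute phase proteins and chemokines were not part of that list. All 45 were found among the 27179 genes of the count files, and 43 passed the filter on low counts. RNA-seq counts came from 6 livers of C57BL/6 mice, 3 wild type (WT) and 3 labelled Mettl3-deficient. Mettl3 is the catalytic subunit of the enzyme complex that writes N6-methyladenosine on RNA. How and in which cells Mettl3 was made deficient, any treatment, and the age and sex of the mice were not stated in the sources used here.

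TNF, IL-1, IL-18 and bacterial products act through surface receptors that recruit adaptors of the MyD88, IRAK and TRAF families. These activate the IkB kinases, which release NF-kB dimers from inhibitors such as IkB-alpha, and NF-kB then induces several of its own inhibitors. In the noncanonical arm, the kinase NIK and IKK-alpha process the Nfkb2 precursor, whose product pairs with RelB. IL-6, LIF and oncostatin M signal through receptors that share gp130 and activate STAT3, and in hepatocytes this route, with IL-1 and the C/EBP factors, is known for driving acute phase protein genes. In the liver, Kupffer cells and recruited macrophages are a main source of the cytokines, and hepatocytes carry many of the receptors.

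Libraries held 31960205 to 36025772 counts. Mettl3 lay at 13.4, 14.3 and 12.1 CPM (counts scaled to library size and TMM factor) in the WT livers and at 5.96, 6.60 and 4.94 CPM in the Mettl3-deficient livers, in the direction of the labels. WT replicate 1 stood apart from the other WT libraries: across genes, its log2 CPM correlated with theirs at 0.943 and 0.939, against 0.983 between those libraries. Transcripts of Y-linked genes were counted in WT replicate 1 and in Mettl3-deficient replicates 1 and 2 and had 0 counts in the other 3 libraries. The TMM factors ran from 0.825 to 0.881 in WT and from 1.12 to 1.25 in Mettl3-deficient libraries, so the scaling differed between the groups. Over the 14380 tested genes, the median change moved from 0.01 to 0.49 on the log2 scale when library size alone was used. Every log2 change below is the log2 fold change of Mettl3-deficient against WT, ± its SE, and levels are mean ± SD with n = 3 per group.

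Of the 43 tested members, 11 were higher and 6 lower in Mettl3-deficient livers at an edgeR adjusted p under 0.05, and 26 were not called. Those higher were Tnf, Il1rn, Tnfrsf12a, Tlr2, Cd14, Irak3, Traf6, Nfkb2, Relb, Tnfaip3 and Tnip1, and those lower were Il18, Il1r1, Il1rap, Lifr, Chuk and Nfkbia. Across all tested genes 23.8% were called, 13.3% higher and 10.5% lower, against 39.5% of the members. The median log2 change was 0.28 over the members and 0.01 over all tested genes. Because the members were chosen with earlier results of these data known, these differences from all genes are no test of the list. The groups did not overlap in CPM for 21 of the 43 members, the 17 called ones with Tnfrsf1a, Nfkb1, Rela and Socs1, against 45.7% of all tested genes. With library size alone 20 members were higher and 3 lower, against 33.4% and 4.14% of all genes. The numbers of higher and lower members were 6 and 4 without WT replicate 2 (where 9.64% of all genes were called), 6 and 4 without WT replicate 3 (10.4%), 7 and 4 without Mettl3-deficient replicate 1 (9.41%) and 7 and 4 without Mettl3-deficient replicate 2 (12.7%). They were 10 and 8 without WT replicate 1 (23.8%) and 10 and 5 without Mettl3-deficient replicate 3 (23.6%). In all 6 of these smaller fits the call held for 9 of the 17 members, namely Il18, Il1rn, Il1rap, Lifr, Tlr2, Cd14, Chuk, Relb and Tnip1.

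**Figure D1:**
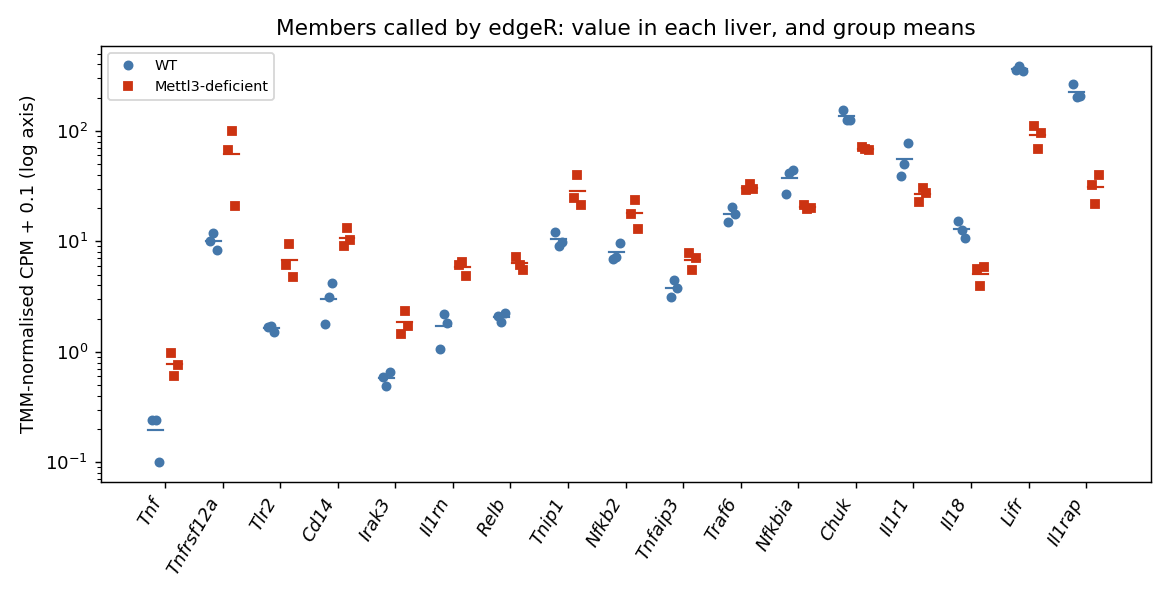
Level of each of the 17 called members in every liver (vertical axis: TMM-normalised CPM plus 0.1, log axis), with WT livers as circles, Mettl3-deficient livers as squares and group means as short lines. In each gene the 3 squares lie wholly above or wholly below the 3 circles, and Tnfrsf12a shows the widest scatter among squares, from 20.6 to 98.7 CPM.

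**Figure D2:**
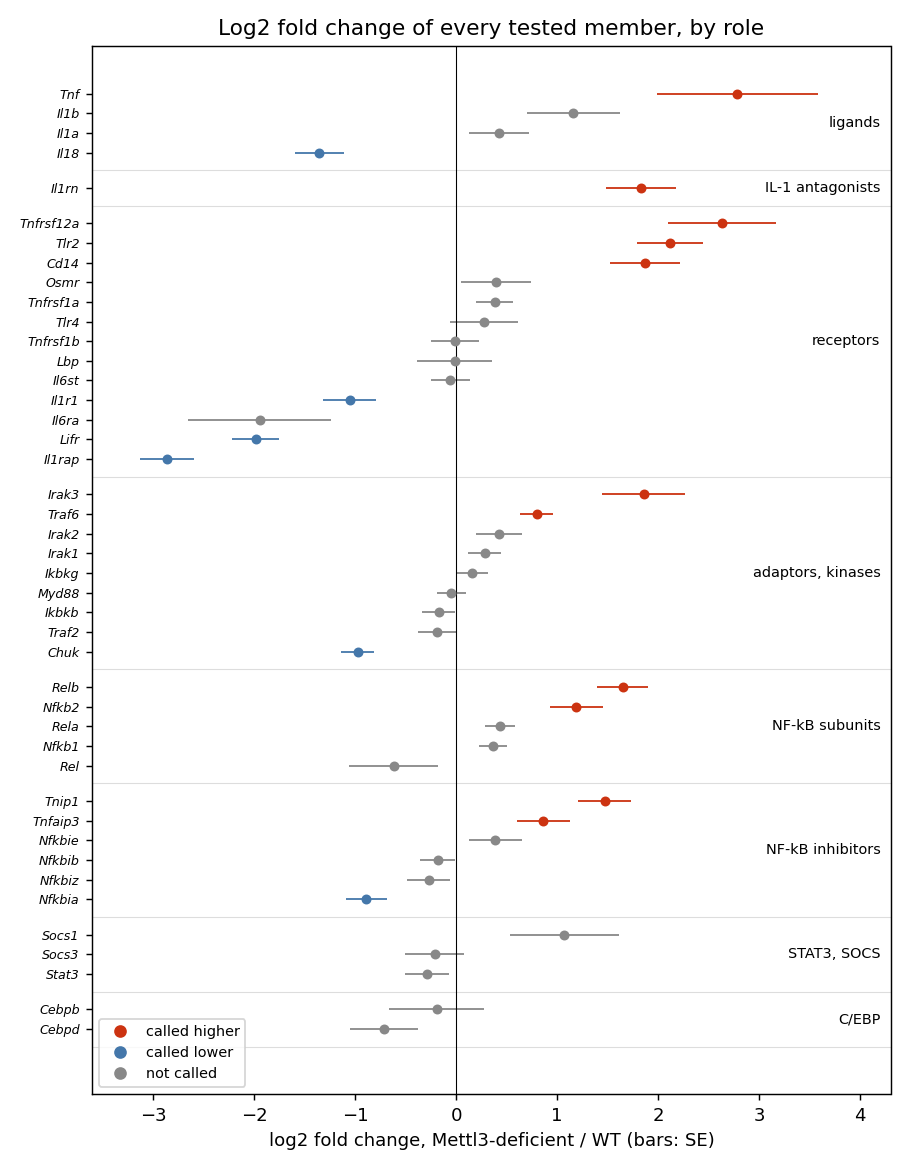
Log2 fold change (horizontal axis, Mettl3-deficient over WT) of the 43 tested members grouped by role, with SE bars and colour for the edgeR call. Receptors run from -2.86 for Il1rap, the lowest value shown, to 2.63 for Tnfrsf12a, and the highest value is 2.78 for the ligand Tnf. The 5 tested members of the STAT3, SOCS and C/EBP groups lie between -0.71 and 1.07 without a call.

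Ligands other than Il18 were scarce in these livers, and the ligands did not move together. Of the 4 tested, Tnf was called higher, Il18 was called lower, and Il1a and Il1b were not called. Tnf (Entrez 21926, chromosome 17, 35199367 to 35202007, GRCm38), the founding cytokine of its family, had 4, 4 and 0 counts in the WT livers and 35, 23 and 26 counts in the Mettl3-deficient livers. In CPM these were 0.142, 0.141 and 0 against 0.869, 0.509 and 0.659, so all Mettl3-deficient livers lay above all WT livers, at levels below 1 CPM. This was a log2 change of 2.78 ± 0.80 with an edgeR adjusted p of 0.0401. That call was lost in each fit without 1 library (highest edgeR adjusted p 0.136), with the replicate number as a block (0.0717), with the Y-linked covariate (0.0651) and with no filter (0.0520).

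Il18, an IL-1 family cytokine that needs processing by caspase-1, moved the other way (Entrez 16173, chromosome 9, 50554700 to 50581841). It lay at 15.1, 12.6 and 10.7 CPM in WT and at 5.49, 3.81 and 5.70 CPM in Mettl3-deficient livers, without overlap. Its log2 change was -1.35 ± 0.24 (edgeR adjusted p = 0.00947), and it remained called under every alternative run. Il1b, the secreted form of IL-1 made by activated macrophages, lay at 0.994, 0.636 and 1.03 CPM in WT and at 1.02, 2.72 and 2.23 CPM in Mettl3-deficient livers, where the lowest of these sat within the WT range. Its log2 change of 1.16 ± 0.46 was not called (edgeR adjusted p = 0.103), nor was that of Il1a, 0.42 ± 0.30 (0.325). Il6 had 0 counts in each WT library and 2 in each Mettl3-deficient library, under the filter, and no fold is given. Of genes with 1 to 20 counts in a library, 70.3% to 73.7% had an even count, against 48.7% to 51.0% of genes above 1000 counts, so low counts such as these are not independent single molecules.

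Natural antagonists of IL-1 were represented by a receptor antagonist and a decoy receptor. The receptor antagonist Il1rn, which occupies the IL-1 receptor without signalling, rose (Entrez 16181, chromosome 2, 24336860 to 24351491). Its levels were 0.959, 2.12 and 1.74 CPM in WT and 5.98, 6.44 and 4.76 CPM in Mettl3-deficient livers. Each Mettl3-deficient liver lay above all WT livers, and the log2 change was 1.83 ± 0.35 (edgeR adjusted p = 0.0113). Il1r2, the decoy receptor, had between 0 and 4 counts per library and was not tested.

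The IL-1 receptor itself fell in both chains. Il1rap (Entrez 16180, chromosome 16, 26581509 to 26730128) encodes the accessory chain without which IL-1, IL-33 and IL-36 receptors do not signal. It lay at 268, 201 and 207 CPM in the WT livers and at 31.9, 21.8 and 39.4 CPM in the Mettl3-deficient livers, a fitted 7.25-fold fall. The log2 change of Il1rap was -2.86 ± 0.26 (edgeR adjusted p = 0.00121), the most negative among the members, and its highest edgeR adjusted p without any 1 library was 0.00957. The ligand-binding chain Il1r1 (Entrez 16177, chromosome 1, 40222480 to 40316201) lay at 38.9, 50.2 and 77.9 CPM in WT and at 22.8, 30.2 and 27.4 CPM in Mettl3-deficient livers. The groups did not overlap, though WT replicate 3 lay well above WT replicate 1, and the log2 change was -1.05 ± 0.26 (edgeR adjusted p = 0.0253). The call of Il1r1 was lost without WT replicate 2, WT replicate 3 or any Mettl3-deficient replicate (highest edgeR adjusted p 0.0941), with the Y-linked covariate, and with library size alone, where the value was -0.57.

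Receptors of the IL-6 family differed among themselves. Lifr (Entrez 16880, chromosome 15, 7090610 to 7197489), the LIF receptor chain that pairs with gp130, lay at 352, 388 and 348 CPM in WT and at 111, 68.6 and 96.2 CPM in Mettl3-deficient livers. That 3.95-fold fall (log2 change -1.98 ± 0.23, edgeR adjusted p = 0.00269) was called under every alternative. Il6st, the shared gp130 chain, was at 96.4 ± 21.0 CPM in WT and 92.7 ± 3.46 CPM in Mettl3-deficient livers, and its log2 change of -0.06 ± 0.19 was not called. Osmr, the oncostatin M receptor chain, was at 4.23 ± 0.964 and 5.59 ± 2.24 CPM, with a log2 change of 0.40 ± 0.35 (edgeR adjusted p = 0.423).

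Il6ra, the ligand-binding chain for IL-6, depended on 1 WT library. It lay at 14.3, 71.2 and 89.6 CPM in WT replicates 1, 2 and 3 and at 8.96, 12.1 and 24.6 CPM in the Mettl3-deficient livers. WT replicate 1 thus sat inside the Mettl3-deficient range while the other WT libraries lay well above it. The log2 change was -1.94 ± 0.71 and was not called by edgeR (adjusted p = 0.0927). Without WT replicate 1 it was -2.41 (edgeR adjusted p = 0.0102), with the replicate block -1.72 (0.0321), and DESeq2, which called 31.9% of all genes, called it over all 6 libraries (adjusted p = 0.00464).

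Of the 3 TNF receptor family members, 1 was called. Tnfrsf12a (Entrez 27279, chromosome 17, 23675445 to 23677449), the receptor Fn14 for the cytokine TWEAK and known as induced in injured and regenerating liver, lay at 10.02, 11.8 and 8.21 CPM in WT. In Mettl3-deficient livers it lay at 66.9, 98.7 and 20.6 CPM, each above every WT liver, with replicate 3 far below the other two. The 6.21-fold rise had a log2 change of 2.63 ± 0.53 (edgeR adjusted p = 0.0161) and was lost without WT replicate 2, WT replicate 3 or Mettl3-deficient replicate 1 (highest edgeR adjusted p 0.0602). Tnfrsf1a, the widely expressed TNF receptor with a death domain, was at 72.8 ± 14.3 and 94.9 ± 5.12 CPM (log2 change 0.38 ± 0.18, edgeR adjusted p = 0.158). Tnfrsf1b, the other TNF receptor, was at 33.5 ± 10.3 and 33.3 ± 2.87 CPM, with no call.

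Of the 4 members that sense or carry bacterial products, Tlr2 and Cd14 rose. Tlr2 (Entrez 24088, chromosome 3, 83836272 to 83841824), which senses bacterial lipoproteins, lay at 1.56, 1.63 and 1.40 CPM in WT and at 6.03, 9.32 and 4.61 CPM in Mettl3-deficient livers. Its log2 change was 2.12 ± 0.33 (edgeR adjusted p = 0.00636). Cd14 (Entrez 12475), which hands lipopolysaccharide to the Tlr4 complex, lay at 1.67, 3.01 and 4.10 CPM in WT and at 8.94, 12.997 and 10.1 CPM in Mettl3-deficient livers. For Cd14 the log2 change was 1.87 ± 0.35 (edgeR adjusted p = 0.0109), and both genes were called under every alternative. Tlr4, the lipopolysaccharide receptor, was at 1.26 ± 0.258 and 1.53 ± 0.0191 CPM (log2 change 0.28 ± 0.34, edgeR adjusted p = 0.576). Lbp, the plasma protein that delivers lipopolysaccharide to Cd14, was at 131 ± 57.4 and 130 ± 38.9 CPM, with 65.9 CPM in WT replicate 1 below all other libraries.

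Tlr2, Cd14, Tnf, Il1rn and Irak3, which were called higher, are genes that macrophages express. Other members expressed in such cells, among them Il1b and Rel, were not called. Cell type markers were read beside them. Of 9 markers of monocytes and macrophages, 8 were called higher and 0 lower (Lyz2, Ly6c2, Ccr2, Cd68, Itgam, Gpnmb, Cx3cr1 and Itgax). Of these calls 3 (Ccr2, Itgam and Gpnmb) held in every fit without 1 library. The number called was 3 without WT replicate 2 or WT replicate 3, and 4 or 5 when Mettl3-deficient replicate 1 or 2 was left out. It was 8 without WT replicate 1 and 7 without Mettl3-deficient replicate 3. The summed level of the 9 markers ran from 54.2 to 66.5 CPM in WT and from 113 to 160 CPM in Mettl3-deficient livers. Most of that sum was Lyz2, at 43.7, 50.8 and 48.5 CPM in WT and 63.7, 90.3 and 79.7 CPM in Mettl3-deficient livers. Of 12 Kupffer cell markers 0 were called, and 0 had an unadjusted p under 0.05 in edgeR or were called by DESeq2, with summed levels of 155 to 553 CPM and 469 to 859 CPM, the lowest in WT replicate 1. Without WT replicate 1, 1 Kupffer cell marker (Cd163) was called lower. Neutrophil markers held 2 higher genes of 3 tested, S100a9 and Csf3r, at summed levels of 2.79 to 4.10 and 6.46 to 10.7 CPM. S100a9 was called in 3 of the 6 fits without 1 library and Csf3r in 0, and the neutrophil marker Ly6g had 0 counts in all libraries. In lymphocyte markers 0 of 8 were called by edgeR or DESeq2 and 1 had an unadjusted p under 0.05, at 3.05 to 3.44 and 4.79 to 5.69 CPM. In bulk liver, a change in the number of cells of a type and a change in RNA per cell cannot be told apart. The part of these cells in the results was not tested.

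Hepatocyte markers moved beside the receptors that fell. Of 8 such markers 3 were called lower by edgeR (Alb, Hnf4a and Asgr1) and 7 by DESeq2, and their summed level ran from 134461 to 171281 CPM in WT and from 45519.4 to 72637.5 CPM in Mettl3-deficient livers. Most of that sum was Alb, and without it the range was 25821.9 to 31869 CPM in WT and 13458 to 19308.5 CPM in Mettl3-deficient livers. By edgeR, leaving out WT replicate 2, WT replicate 3 or Mettl3-deficient replicate 1 left 0 hepatocyte markers called, and leaving out either of the other Mettl3-deficient replicates left 2. Without WT replicate 1, 4 were called lower. Endothelial markers held 1 lower gene of 7 (Lyve1, called in 4 of the 6 fits without 1 library). Stellate cell markers held 0 called of 8 by edgeR or DESeq2 (0 with an unadjusted p under 0.05). Cholangiocyte markers held 1 higher gene of 6 (Sox9, called in 1 of the fits without 1 library). The part of any of these cell types in the lower Il1rap, Lifr, Il1r1 and Il18 was not tested.

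**Figure D3:**
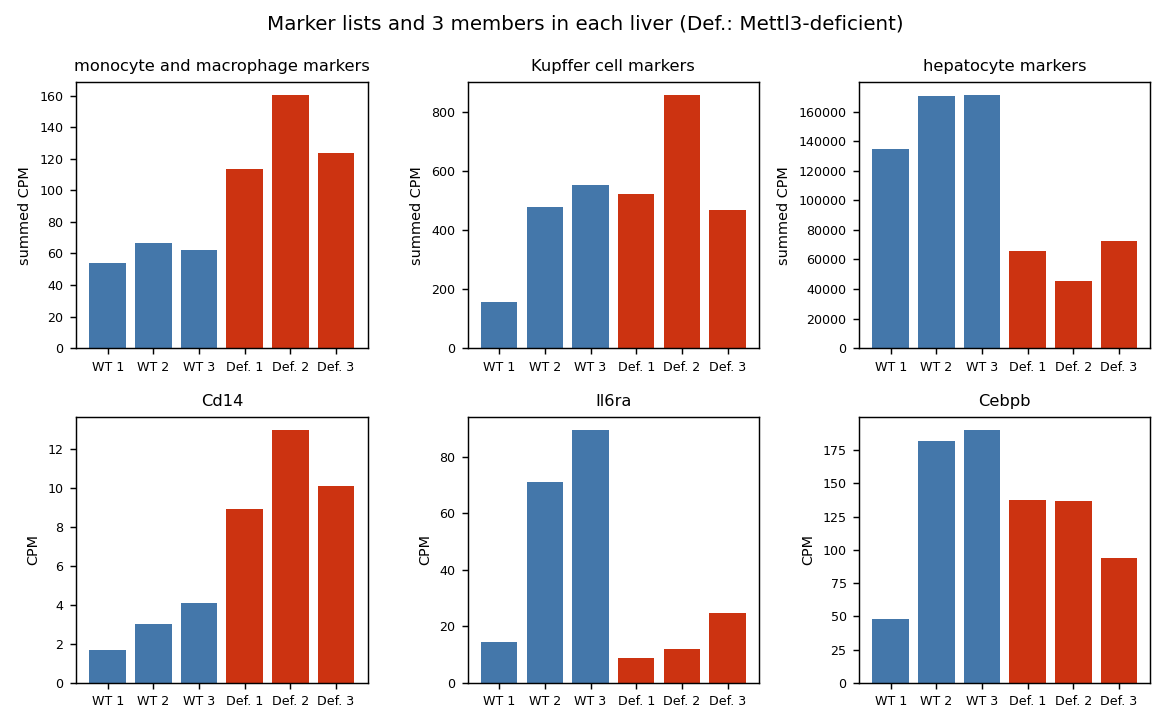
Summed CPM of the monocyte and macrophage, Kupffer cell and hepatocyte marker lists (upper row) and CPM of Cd14, Il6ra and Cebpb (lower row) in each of the 6 livers (bars from 0, WT in blue, Mettl3-deficient in red). The macrophage markers and Cd14 are higher in all 3 Mettl3-deficient livers than in any WT liver, and WT replicate 1 is the lowest WT liver in all 6 panels.

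Adaptors and kinases that carry the receptor signal were mostly not called. Irak3, an IRAK without kinase activity that restrains Toll-like receptor signalling and is made by macrophages, rose from 0.497, 0.389 and 0.554 CPM in WT to 1.37, 2.26 and 1.62 CPM in Mettl3-deficient livers. Its log2 change of 1.86 ± 0.41 (edgeR adjusted p = 0.0177) lost its call without WT replicate 2, WT replicate 3 or Mettl3-deficient replicate 2 (highest edgeR adjusted p 0.0663). Traf6, the ubiquitin ligase downstream of IL-1 and Toll-like receptors, rose from 14.7, 20.2 and 17.6 CPM to 28.9, 32.8 and 29.6 CPM. This change of 0.80 ± 0.16 on the log2 scale (edgeR adjusted p = 0.0143) was lost only without WT replicate 3 (0.0542).

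Chuk (Entrez 12675, chromosome 19, 44073334 to 44107505), which encodes the kinase IKK-alpha of both NF-kB arms, fell from 156, 126 and 124 CPM to 71.4, 67.7 and 67.6 CPM. The Mettl3-deficient livers were tightly grouped, and the log2 change was -0.97 ± 0.16 (edgeR adjusted p = 0.0076), with -0.50 and no call when library size alone was used. The partner kinase Ikbkb was at 64.8 ± 10.7 and 57.5 ± 4.61 CPM and the scaffold Ikbkg at 90.1 ± 12.2 and 101 ± 2.63 CPM, neither called. The log2 changes of the remaining adaptors were 0.43 for Irak2, 0.28 for Irak1, -0.05 for Myd88 and -0.19 for Traf2, none called. Without WT replicate 1, Irak2, a kinase-like partner of Irak1, reached 0.70 (edgeR adjusted p = 0.0208).

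Among the 5 NF-kB subunits, Relb and Nfkb2 rose and the canonical subunits were not called. Relb (Entrez 19698, chromosome 7, 19606217 to 19629438) lay at 2.02, 1.77 and 2.14 CPM in WT and at 7.12, 6.07 and 5.45 CPM in Mettl3-deficient livers. The narrow spread in both groups gave a log2 change of 1.65 ± 0.25 (edgeR adjusted p = 0.00599), called under every alternative. Nfkb2 (Entrez 18034, chromosome 19, 46300994 to 46312400), which encodes the precursor that pairs with RelB, lay at 6.89, 7.07 and 9.61 CPM in WT and at 17.7, 23.3 and 12.8 CPM in Mettl3-deficient livers. Its log2 change was 1.19 ± 0.26 (edgeR adjusted p = 0.017), lost without WT replicate 2 or Mettl3-deficient replicate 1 or 2 (highest edgeR adjusted p 0.0662). In the GENCODE annotation 18.1% of its exonic bases lie opposite exons of other genes such as Psd, whose reads could not be told apart if strand was not used in counting.

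Rela, the main activating subunit, was at 52.4, 53.2 and 49.5 CPM in WT and at 75.4, 74.7 and 59.2 CPM in Mettl3-deficient livers. Those groups did not overlap, and the log2 change of 0.43 ± 0.15 was not called (edgeR adjusted p = 0.0698) except without Mettl3-deficient replicate 3, at 0.54 (0.0325), or with library size alone, at 0.91 (0.00592). Nfkb1 had 0.36 ± 0.14 (edgeR adjusted p = 0.0907), and Rel, the subunit of lymphoid and myeloid cells, had -0.62 ± 0.44 (0.329) at 1.83 ± 0.448 and 1.19 ± 0.577 CPM.

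Inhibitors of NF-kB, several of them induced by NF-kB itself, moved in opposite directions. Tnip1 (Entrez 57783, chromosome 11, 54910787 to 54962956), a ubiquitin-binding partner of Tnfaip3, lay at 12.1, 9.05 and 9.80 CPM in WT and at 24.8, 39.9 and 21.2 CPM in Mettl3-deficient livers (log2 change 1.47 ± 0.26, edgeR adjusted p = 0.00933). Tnfaip3 (Entrez 21929, chromosome 10, 19000910 to 19015410), a ubiquitin-editing enzyme that ends TNF signalling, lay at 3.02, 4.38 and 3.66 CPM in WT and at 7.75, 5.38 and 6.99 CPM in Mettl3-deficient livers. Both genes were higher in each Mettl3-deficient liver than in any WT liver. The call of Tnfaip3, 0.86 ± 0.26 (edgeR adjusted p = 0.0479), was at the threshold and was lost in every fit without 1 library (highest edgeR adjusted p 0.17), with RLE factors, limma-voom, no filter and the replicate block (0.103).

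Nfkbia (Entrez 18035, chromosome 12, 55489409 to 55492647), which encodes IkB-alpha and is a classical feedback target of NF-kB, lay at 26.8, 41.3 and 43.8 CPM in WT and at 21.0, 19.5 and 19.9 CPM in Mettl3-deficient livers. The Mettl3-deficient livers were alike and all below WT replicate 1, the lowest WT liver. Its log2 change was -0.89 ± 0.20 (edgeR adjusted p = 0.0196). Leaving out WT replicate 2 or 3, or Mettl3-deficient replicate 1 or 2, removed the call (highest edgeR adjusted p 0.0719), as did library size alone, with -0.41. The other IkB genes were not called, with log2 changes of 0.39 ± 0.26 for Nfkbie, -0.18 ± 0.17 for Nfkbib and -0.27 ± 0.22 for Nfkbiz.

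Nfkbia and Tnfaip3, both textbook targets of NF-kB, moved in different directions, and the bases before the starts of these and 3 other called members are shown to compare them. They are the 250 bases before a start in the RefSeq promoter set on GRCm38.p6, 5′ to 3′ on the gene's strand, with matches to the NF-kB consensus on either strand in capitals. Tnfaip3 and Nfkb2 have other starts in that set, and the most upstream of these is used. For Tnip1, Tlr2 and Nfkb2 the start lies inside the gene span given above, and so does part or all of the window.
Tnfaip3 (chr10:19015411-19015660, minus strand): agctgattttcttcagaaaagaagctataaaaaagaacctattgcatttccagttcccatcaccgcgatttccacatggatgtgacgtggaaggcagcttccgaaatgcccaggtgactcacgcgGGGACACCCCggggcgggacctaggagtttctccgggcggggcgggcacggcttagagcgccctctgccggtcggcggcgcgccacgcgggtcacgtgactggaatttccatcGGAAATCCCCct
Tnip1 (chr11:54962941-54963190, minus strand): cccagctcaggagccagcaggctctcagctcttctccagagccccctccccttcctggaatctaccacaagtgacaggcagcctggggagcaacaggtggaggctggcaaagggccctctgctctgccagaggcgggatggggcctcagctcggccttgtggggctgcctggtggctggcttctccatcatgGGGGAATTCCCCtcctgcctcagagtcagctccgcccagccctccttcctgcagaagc
Nfkb2 (chr19:46304487-46304736, plus strand): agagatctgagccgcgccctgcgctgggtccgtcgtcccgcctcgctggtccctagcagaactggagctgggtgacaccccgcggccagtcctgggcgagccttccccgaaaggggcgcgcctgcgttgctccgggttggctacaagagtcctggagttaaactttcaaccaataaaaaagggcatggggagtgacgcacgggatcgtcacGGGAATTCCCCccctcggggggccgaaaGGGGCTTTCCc
Tlr2 (chr3:83841609-83841858, minus strand): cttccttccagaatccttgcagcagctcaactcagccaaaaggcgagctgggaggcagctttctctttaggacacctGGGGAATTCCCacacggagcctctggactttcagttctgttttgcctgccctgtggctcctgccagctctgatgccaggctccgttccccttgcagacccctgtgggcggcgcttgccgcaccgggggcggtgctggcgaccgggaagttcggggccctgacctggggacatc
Nfkbia (chr12:55492648-55492897, minus strand): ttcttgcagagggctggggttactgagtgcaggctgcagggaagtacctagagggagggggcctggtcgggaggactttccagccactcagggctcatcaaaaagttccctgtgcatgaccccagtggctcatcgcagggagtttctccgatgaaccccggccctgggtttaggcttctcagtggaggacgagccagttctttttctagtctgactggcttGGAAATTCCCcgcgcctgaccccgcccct
The first 4 belong to genes that were higher in Mettl3-deficient livers and the last to one that was lower. All 5 were taken from called members with a match, so that each holds at least 1 is no result. Windows of Tnf, Il1rn, Tnfrsf12a, Irak3 and Traf6 (higher) and of Il18, Il1rap, Lifr and Chuk (lower) held no match to this consensus. Measured from the start, matches began at -125 and -12 in Tnfaip3 and at -29 in Nfkbia. The runs in Tnip1 (from -58) and Tlr2 (from -173) are overlapping matches around a palindrome, as is the first run in Nfkb2 (from -39), which has another match at -11.

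The promoter table held 37 of the 45 members, in 49 windows, since several genes have more than 1 start (Cd14, Cebpd, Ikbkb, Lbp, Nfkb1, Nfkbiz, Relb and Tlr4 were not among them). The NF-kB consensus, 10 bases long and searched on both strands, was in 11 of the 49 windows (22.4%) and 9 members, against 3.90% of all 32851 windows of that length. Beside the 5 shown, these were Il1r1 (lower), Rel and Nfkbie (not called) and Il6 (under the filter). TTCNNNGAA, the core bound by STAT factors, was in 8 member windows (16.3% against 7.02% of all windows), those of Chuk, Il1r2, Myd88, Nfkb2, Socs3, Tnfrsf1a, Tnfrsf1b and Tnip1. The AP-1 core TGANTCA was in 9 member windows (18.4% against 6.75%). In member windows no match to the NF-kB consensus overlapped a match to the other cores. A match describes the letters in these windows only.

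Regulators at the end of the IL-6 route were not called: of 5 tested STAT3, SOCS and C/EBP members, edgeR and DESeq2 called 0, and 0 had an unadjusted p under 0.05. Stat3, the transcription factor of this route, was at 119 ± 28.2 CPM in WT and 97.0 ± 12.6 CPM in Mettl3-deficient livers (log2 change -0.29 ± 0.22, edgeR adjusted p = 0.357). Its feedback inhibitor Socs3, a gene that rises with STAT3 activity, was at 3.45, 5.80 and 4.47 CPM in WT and at 4.57, 3.12 and 4.18 CPM in Mettl3-deficient livers, with overlapping ranges (-0.21 ± 0.29, edgeR adjusted p = 0.627). Socs1, an inhibitor of JAK kinases, lay at 0.639, 0.424 and 0.444 CPM in WT and at 0.695, 1.79 and 0.684 CPM in Mettl3-deficient livers. Its log2 change of 1.07 ± 0.54 was not called (edgeR adjusted p = 0.179) and was 0.45 without Mettl3-deficient replicate 2, the library with the high value.

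Both C/EBP factors had their lowest WT level in WT replicate 1. Cebpb, which acts with NF-kB and STAT3 on acute phase genes, lay at 48.3, 182 and 190 CPM in WT replicates 1, 2 and 3 and at 138, 137 and 94.0 CPM in the Mettl3-deficient livers. The Mettl3-deficient values fell between WT replicate 1 and the other WT livers, and the log2 change of -0.19 ± 0.47 was not called. Cebpd, a related factor induced by IL-6, lay at 6.43, 12.9 and 15.9 CPM in WT and at 8.39, 7.39 and 5.73 CPM in Mettl3-deficient livers (-0.71 ± 0.34, edgeR adjusted p = 0.157). Without WT replicate 1 the value of Cebpd was -1.01 and was called (edgeR adjusted p = 0.0222). In GENCODE, 20.7% of the exonic bases of Cebpb and 15.003% of those of Cebpd lie opposite exons of other genes.

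An edgeR interaction term between genotype and Y-linked counts, described in the closing section, passed the threshold for 1.11% of all genes and for Cebpb among the members. In that fit WT replicate 1 and Mettl3-deficient replicate 3 are each the sole library of an arm. Differences were also computed within the libraries with Y-linked counts (WT replicate 1 against Mettl3-deficient replicates 1 and 2) and within those without (WT replicates 2 and 3 against Mettl3-deficient replicate 3), on the log2(CPM + 0.1) scale. All 17 called members had the same sign in both, which follows from their groups not overlapping in CPM and is no separate check. Members called higher ran from 1.06 (Traf6) to 3.03 (Tnfrsf12a) with Y-linked counts and from 0.61 (Nfkb2) to 2.15 (Tnf) without. Members called lower ran from -3.31 (Il1rap) to -0.40 (Nfkbia) with Y-linked counts and from -2.37 (Il1rap) to -0.89 (Chuk) without. Each split has a group of 1 library and no test.

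Per kilobase of exon, the order of the members changed most for the receptors. In WT livers Cebpb was highest, at 93.3 ± 53.0 CPM per kilobase, followed by Lifr at 33.7 ± 2.04. Tnfrsf1a (28.1 ± 5.53), Lbp (27.1 ± 11.9), Chuk (26.6 ± 3.50) and Nfkbia (23.2 ± 5.70) came next and did not differ beyond their spread. Lifr stood at rank 2 of 45 in WT and rank 13 in Mettl3-deficient livers, at 8.52 ± 1.99 CPM per kilobase. Il1rap moved from rank 7 (19.8 ± 3.23) to rank 26 (2.73 ± 0.779), while Tnfrsf12a moved from rank 20 (5.18 ± 0.924) to rank 3 (32.1 ± 20.3), with a spread that spans several neighbours. The lowest places in both groups were those of Il1r2 and Il6, with Tnf next in WT at 0.0577 ± 0.0499 CPM per kilobase.

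A separate list held 69 other genes of the same pathways, of which 64 were tested. In it 10 rose and 3 fell, so that 20.3% were called, against 23.8% of all genes, and the median log2 change was 0.19. Without WT replicate 3 or Mettl3-deficient replicate 1, 4 genes rose, and without WT replicate 2, 5 did, with 0 lower genes in these 3 fits, and without Mettl3-deficient replicate 2, 7 rose and 1 fell. With the replicate block 6 rose and 1 fell (10.6% and 8.03% of all genes), and with library size alone 32 rose and 0 fell.

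Of the 28 tested TNF and NF-kB genes in that list, 5 rose and 3 fell. Map3k14, which encodes the noncanonical kinase NIK, rose by 0.94 ± 0.23 on the log2 scale (from 4.33 ± 0.230 to 8.32 ± 1.73 CPM, edgeR adjusted p = 0.0258), and Traf3, the adaptor that targets NIK for degradation, by 0.93 ± 0.16 (from 13.1 ± 1.57 to 25.0 ± 2.70 CPM, edgeR adjusted p = 0.00917). Ltb, a lymphotoxin chain whose receptor uses the noncanonical arm, rose by 1.69 ± 0.49, Adam17, the protease that sheds TNF and its receptors, by 0.55 ± 0.14, and Tradd, an adaptor of the TNF receptor, by 0.46 ± 0.14. Tnfsf12, which encodes TWEAK, the ligand of the Tnfrsf12a product, fell from 5.55 ± 1.25 to 2.77 ± 0.469 CPM (log2 change -1.004 ± 0.28, edgeR adjusted p = 0.0372), and was called in 1 of the 6 fits without 1 library (highest edgeR adjusted p 0.129). Cyld, a deubiquitinase that limits NF-kB, had -0.64 ± 0.14, and Sharpin, a subunit of the linear ubiquitin ligase, had -0.44 ± 0.13. Of these 8 genes, Traf3 alone was called in every fit without 1 library.

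In the IL-1, IL-18 and Toll-like receptor genes, 2 of 21 rose, Tlr5, the flagellin receptor, by 1.38 ± 0.28 (edgeR adjusted p = 0.0136) and Cd180, a Toll-like receptor relative of B cells and macrophages, by 1.503 ± 0.44 (edgeR adjusted p = 0.0443). The call of Cd180 was lost in every fit without 1 library. In the IL-6 family, JAK and SOCS genes, 3 of 15 rose. Lif, the ligand of the Lifr product, had 2, 2 and 0 counts in WT and 66, 118 and 68 counts in Mettl3-deficient livers (log2 change 5.28 ± 0.70, edgeR adjusted p = 0.00386). Socs6 rose from 12.7 ± 0.769 to 36.6 ± 1.92 CPM (1.53 ± 0.14, edgeR adjusted p = 0.00112) and Socs5 from 8.999 ± 0.527 to 16.5 ± 1.69 CPM (0.87 ± 0.17, edgeR adjusted p = 0.0113), which was lost without WT replicate 3 or Mettl3-deficient replicate 1 (highest edgeR adjusted p 0.0527). Both are SOCS family members, better known for acting on receptor kinases than on STAT3. For Tnfsf12 with Tnfrsf12a and for Lif with Lifr, ligand and receptor moved in opposite directions. Other pairs did not: Tnf was called higher while Tnfrsf1a (log2 change 0.38) and Tnfrsf1b (-0.006) were not called. Likewise Ltb was called higher and its receptor gene Ltbr (0.28) was not called.

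**Figure D4:**
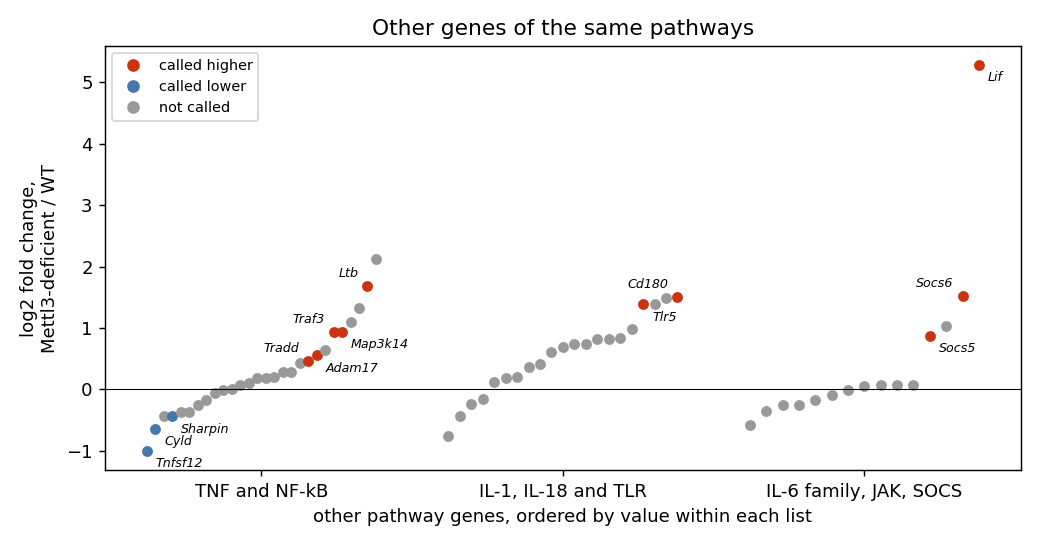
Log2 fold change (vertical axis, Mettl3-deficient over WT) of the 64 tested other pathway genes, ordered by value within 3 lists, with called genes coloured and named. The Lif value of 5.28 stands far above the rest, and the 3 called lower genes (Tnfsf12, Cyld and Sharpin) are in the TNF and NF-kB list.

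Of 15 tested NF-kB responsive genes outside the members, 2 rose and 2 fell, a share of 26.7% near the 23.8% of all genes, with a median log2 change of -0.08. Ier3, an early response survival gene, rose by 2.43 ± 0.45 and Ccl2, a monocyte attractant, by 2.65 ± 0.65, while Sod2, the mitochondrial superoxide dismutase, had -0.66 ± 0.19 and Cxcl1, a neutrophil attractant, -1.82 ± 0.54. Of 20 acute phase genes known to respond to IL-6, 1 rose (Serpina10) and 4 fell (Crp, Fgb, Fgg and Hamp). That was 25% in all, with a median log2 change of -0.29. DESeq2, which called 31.9% of all genes, called 1 of these 20 genes higher and 8 lower. Of the 15 NF-kB responsive genes it called 4 higher and 3 lower. The edgeR calls of 1 gene in each of these target lists, Ier3 and Crp, held in every fit without 1 library.

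**Figure D5:**
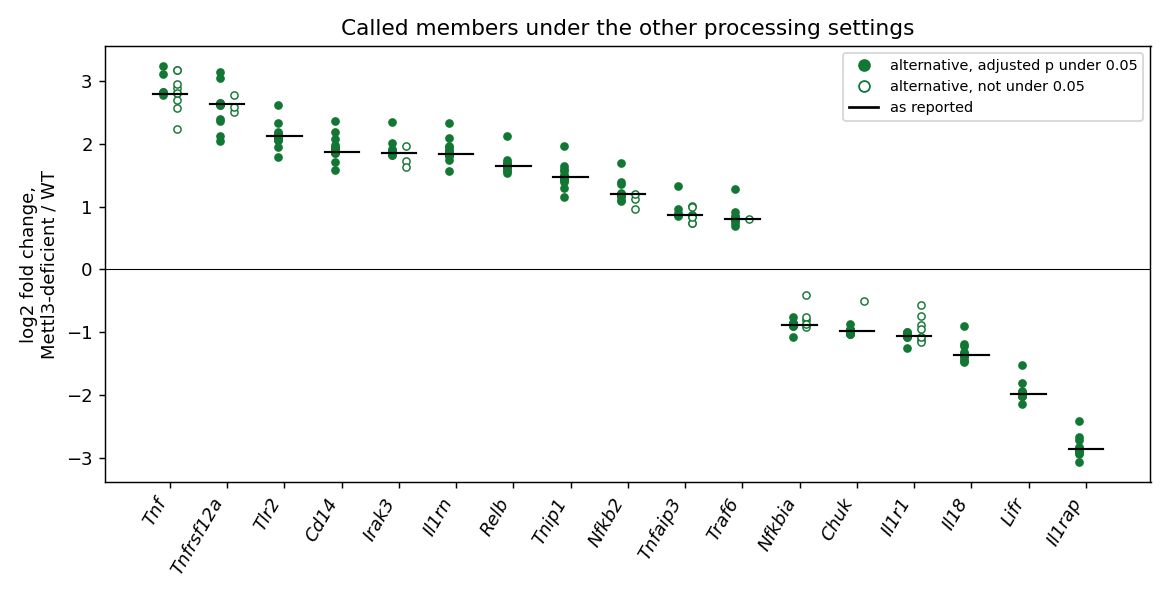
Log2 fold change of the 17 called members (horizontal lines) and its value under each of the other processing settings, filled where the adjusted p stayed under 0.05 and open where it did not. Every point stays on the side of 0 of its gene's line, and Tnf and Tnfaip3 hold the most open points.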

How the data were processed

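RNA-seq libraries of 3 WT and 3 Mettl3-deficient livers were used, grouped by their titles. Per the labels' protocols, total RNA was taken with TRIzol, depleted of ribosomal RNA and made into directional libraries. Per the submitters' processing notes, HISAT2 and featureCounts were used on mm10. Versions, settings, annotation and use of strand were not stated there. The files deposited by the authors hold whole-number counts for 27179 Entrez genes in each library. Symbols came from RefSeq on GRCm38.p6, the build of mm10, and 25275 identifiers matched.

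Counts were tested with edgeR 4.0.16 in R 4.3.3 (robust quasi-likelihood F test, two-sided, TMM, group as the design). A low-count filter (filterByExpr, min.count 10, min.total.count 15) kept 14380 genes, and p-values were Benjamini-Hochberg adjusted over all of them, with a call under 0.05. An SE is the absolute log2 fold change over the root of F. Exon lengths are unions of GENCODE exons, and promoter sequences are from RefSeq.

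Alternatives were RLE and upper-quartile factors, library size alone, DESeq2 1.42.0, limma-voom (limma 3.58.1), no filter, CPM reaching 1 in at least 3 libraries, the replicate block, a covariate for more than 100 Y-linked counts, and each library left out. The split and interaction by Y-linked counts, the marker and target counts without 1 library and the hepatocyte sum without Alb were added after seeing the data. The members and lists were chosen with earlier results of these data known. Called members, and uncalled members with an absolute log2 fold change of at least 1, are given in every sample, and other uncalled members where a library stood out. The called genes of the other pathway list are named, and in each target list up to 4 by p, with Hamp added after its value was seen. The labels number the livers within a group and do not name the animals. Y-linked counts were present in some libraries of each group and 0 in others, so each group holds more than 1 animal, and p-values measure the spread between these libraries. Libraries of a group differed beyond sampling noise (chi-square per degree of freedom 17.1 or more).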

Additional observations from a re-analysis of the deposited data

Results flagged for a closer look

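Cebpb had opposite differences in the libraries with and without Y-linked counts. Its log2 difference, Mettl3-deficient against WT, was 1.503 in the 3 libraries with Y-linked counts and -0.99 in the 3 without, and the edgeR interaction term was 2.49 (adjusted p = 0.0135). That term was added after WT replicate 1 was seen to stand apart. Its arms of WT with and Mettl3-deficient without Y-linked counts hold 1 library each, WT replicate 1 and Mettl3-deficient replicate 3, whose spread is assumed to be that of the other arms, so it has no replicate check in those arms. It was the only 1 of the 43 tested members called by this test, which called 160 of 14380 genes (1.11%), and 11 members had an unadjusted p under 0.05. WT replicate 1 is the sole WT library with Y-linked counts and also the one that stands apart, so the Y-linked counts and that library cannot be told apart.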

How the results depend on the processing

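Of the 17 called members, 0 changed sign under any alternative. With library size alone, 20 members were higher and 3 lower, and 32 other pathway genes were higher and 0 lower, and the share of all calls that were higher went from 55.7% to 89.0%. The replicate block gave 6 higher and 1 lower other pathway genes. Numbers called without 1 library ran from 6 to 10 for higher members, from 4 to 8 for lower members, from 4 to 10 for higher and from 0 to 2 for lower other pathway genes. The cause was not tested.

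Uncalled members near 0 changed sign under some settings and were called in none of these. With library size alone the values turned positive for Tnfrsf1b (0.48), Il6st (0.43), Lbp (0.46), Myd88 (0.43), Traf2 (0.29), Ikbkb (0.31), Nfkbib (0.30), Nfkbiz (0.20), Stat3 (0.19), Socs3 (0.27) and Cebpb (0.31). The Y-linked covariate gave 0.20 for Tnfrsf1b, 0.065 for Il6st, 0.40 for Lbp and 0.26 for Cebpb. Tnfrsf1b and Lbp were both 0.032 with upper-quartile factors, 0.044 and 0.067 with limma-voom, where Cebpb was 0.019, and 0.042 and 0.060 with the replicate block, and Tnfrsf1b was 0.0048 with no filter. Without 1 library, Tnfrsf1b ran from -0.24 to 0.14, Il6st from -0.23 to 0.058, Lbp from -0.34 to 0.25, Myd88 from -0.12 to 0.011 and Cebpb from -0.60 to 0.087.

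Same-numbered libraries did not deviate together (correlations 0.08, -0.02 and 0.03), so the block was used only as an alternative: it gave 9 higher and 7 lower members, and not every library correlated best with its own number. A filter of CPM of at least 1 left Tnf and Socs1 untested.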
